A study of Mus musculus with 2 samples.

Results

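The genes described here encode the parts of peptide signalling in the mouse neural tube at embryonic day 12.5: neuropeptide precursors, granins, processing enzymes and peptide receptors. They were chosen by symbol, as 43 genes among the 55536 genes quantified: 17 precursors, 6 granins (with Vgf and Scg5 counted among them), 5 processing enzymes (with the convertase inhibitor gene Pcsk1n counted among them) and 15 receptors. Ramp1, a receptor subunit gene, was counted among the receptors. The tissue came from healthy, untreated B6NCrl embryos of both sexes that carried no engineered allele by the labels. The study has 1 group of 2 libraries of polyadenylated RNA, replicate 1 from a pool of 120 embryos and replicate 2 from a pool of 88. Pooling averages over embryos and sexes, so a difference between the libraries belongs to these pools and not to a condition.

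Neuropeptides are cut from larger precursor proteins inside dense-core vesicles. Prohormone convertases cut at pairs of basic residues, a carboxypeptidase trims the basic residues left behind, and an amidating enzyme finishes many of the peptides. Granins are acidic proteins that help to build these vesicles and are themselves cut into peptides. The released peptides act on G protein-coupled receptors. In the spinal cord and its sensory ganglia they are known as co-transmitters of pain, touch and autonomic pathways, and several precursors are switched on as the first neurons differentiate.

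Levels are TPM (a transcript abundance unit corrected for gene length, so that genes can be compared within a library). Of 33529531 estimated counts in replicate 1 and 35461403 in replicate 2, genes took 97.0% and 97.1%. At an effective length of 1 kb, 3 counts, the most that a count of 0 allows, were worth 0.143 and 0.138 TPM. Such limits cover counting error only. Read sharing between genes was small: the deposited posterior SD of the count was 0 in both libraries for 40 of 43 members and at most 1.73 counts. The labelled tissue was met by its markers, since all 8 neural tube markers were expressed. The 5 forebrain and hypothalamus markers summed to 0.15 TPM in replicate 1 and 0 in replicate 2.

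A gene is called expressed at 1 TPM or more in both libraries. By that rule 29 of 43 members were expressed, namely 12 of 17 precursors, 6 of 6 granins, 4 of 5 processing enzymes and 7 of 15 receptors. At 10 TPM or more in both libraries, 17 remained (6, 5, 3 and 3). Over all members, the role medians had the same order in both libraries. Granins had a median of 41.2 TPM in replicate 1 and 45.8 TPM in replicate 2, processing enzymes 26.6 and 17.2 TPM, precursors 4.3 and 5.2 TPM, and receptors 0.52 and 0.80 TPM. The granin median lay above the precursor median by 3.20 ± 0.09 on the log2 scale (SD, n = 2). The enzyme median lay above it by 2.18 ± 0.64, and the precursor median lay above the receptor median by 2.87 ± 0.25. Over expressed members only, the top roles changed places, with enzymes above precursors by 2.67 and granins above precursors by 2.08. With 2 libraries these are descriptions with no test. Together the members held 0.121% ± 0.00321 of all TPM.

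**Figure D1:**
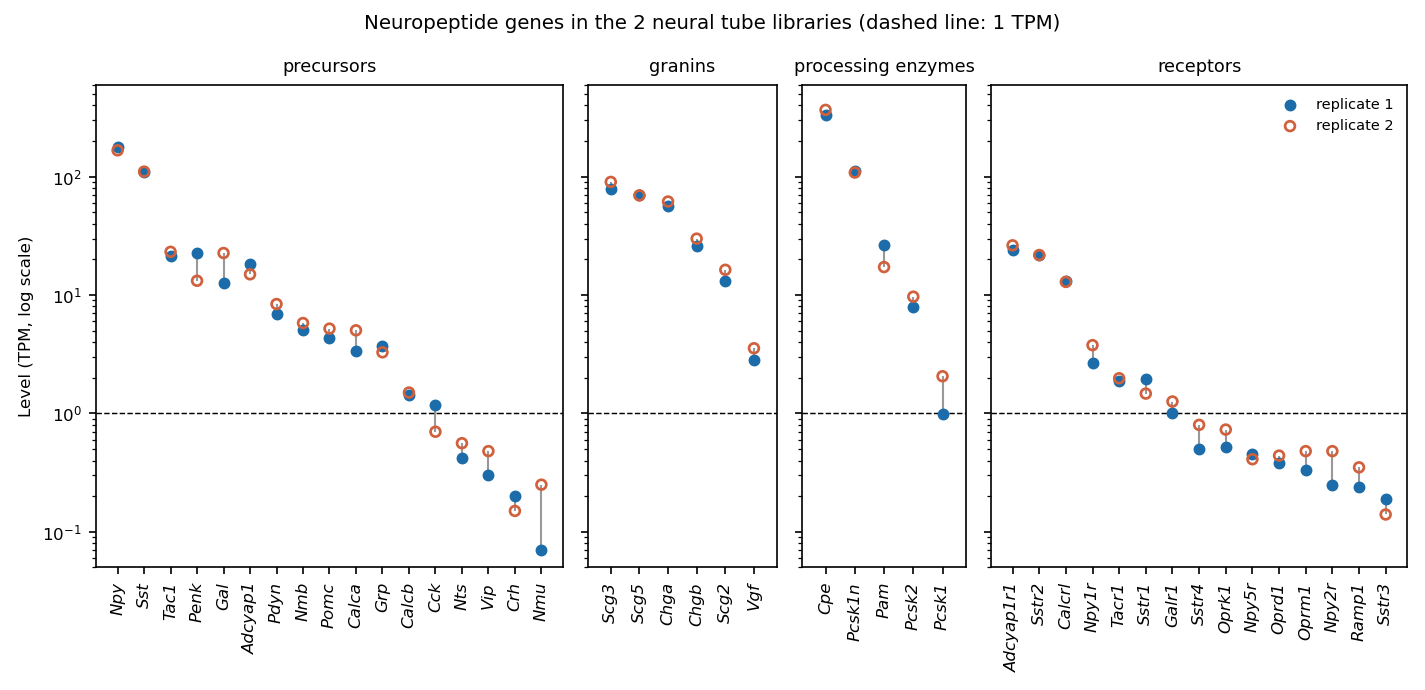
Levels of the 43 genes (TPM, log axis) by role, ordered by mean within each role, with a filled point for replicate 1, an open point for replicate 2 and a line between them. Npy and Sst stand above the other precursors in both libraries, all 6 granins lie above the dashed line at 1 TPM, and 8 of 15 receptors lie below it.

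Precursors were dominated by a pair of genes. Npy, which encodes neuropeptide Y (ENSMUSG00000029819.6, chr6:49822710-49829507, plus strand, mm10), stood at 179.5 TPM in replicate 1 and 167 TPM in replicate 2. Sst, which encodes somatostatin, an inhibitory peptide (ENSMUSG00000004366.4, chr16:23889573-23890958, minus strand), stood at 109 and 110.2 TPM. Both were high in both libraries and took 73.2% ± 1.02 of the summed precursor TPM. Npy ranked 852nd and Sst 1489th by mean TPM among 22028 protein-coding genes. Npy lay above Sst by 0.66 ± 0.09 on the log2 scale. Each has 1 annotated transcript, so no isoform estimate enters these values.

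A middle group of 4 precursors lay between 12.75 and 23.2 TPM. Tac1, the precursor of substance P and neurokinin A, had 21.5 and 23.2 TPM in replicates 1 and 2. Adcyap1, the precursor of PACAP, had 18.25 and 14.96 TPM. Penk, which encodes proenkephalin, had 22.5 TPM in replicate 1 and 13.2 TPM in replicate 2. Gal, which encodes galanin, showed the opposite order with 12.75 and 22.6 TPM. Tac1 and Adcyap1 differed less between the 2 pools, whereas Penk and Gal changed places: the log2 ratio of Gal over Penk was −0.82 in replicate 1 and 0.78 in replicate 2.

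Another 6 precursors were expressed below 10 TPM. Pdyn, which encodes prodynorphin, had 6.92 and 8.39 TPM, and Nmb, the neuromedin B precursor, 5.08 and 5.80 TPM. Pomc, the precursor of corticotropin and beta-endorphin, had 4.3 and 5.2 TPM (79 and 99 counts). Pituitary markers were at or near 0 beside it: their sum was 0.03 and 0.05 TPM, and Cga and Gh were at 0 in both libraries. Calca, the gene of calcitonin and the alpha form of calcitonin gene-related peptide (CGRP), had 3.35 and 5.03 TPM, and its neighbour Calcb, the gene of the beta form, 1.44 and 1.5 TPM. The 2 genes lie 82286 bases apart on chromosome 7, on opposite strands. Grp, the gastrin-releasing peptide precursor, had 3.68 and 3.28 TPM. Nmb overlaps Sec11a on the same strand (138 and 134 TPM), and the posterior SDs of its 62 and 70 counts were 0.45 and 0.57.

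The remaining 5 precursors were not expressed by the rule. Cck, which encodes cholecystokinin, crossed the threshold in replicate 1 alone (1.18 against 0.70 TPM, 15 and 9 counts). Nts (neurotensin) had 0.42 and 0.56 TPM and Vip (vasoactive intestinal peptide) 0.30 and 0.48 TPM. Crh, for the corticotropin-releasing hormone, had 5 and 4 counts, and Nmu, for neuromedin U, 1 and 4 counts. These last 2 were too shallow for the library comparison.

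The opioid precursors are shown by sequence, because their annotated coding sequences carry the repeated unit and the basic codon pairs on which the processing enzymes act. The unit searched was codons for tyrosine, glycine, glycine and phenylalanine and then methionine or leucine, the enkephalin pentapeptide, in 1 coding sequence for each of 21387 genes. Penk held 7 copies, 6 ending in methionine and 1 in leucine. Pdyn held 3 copies, all ending in leucine, and Pomc held 1. Of all genes searched, 10 held the unit and only Penk and Pdyn held it more than once. Every copy in these 3 genes followed a basic codon pair, and 5 of 7 copies in Penk and 3 of 3 in Pdyn had a basic pair on both sides. The lines give the unit in lower case with 6 bases on each side, coding strand, 5′ to 3′, mm10. Capitals mark codons for lysine or arginine.
Penk copy 1 (chr4:4134328-4134354, minus strand): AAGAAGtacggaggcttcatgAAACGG
Penk copy 6 (chr4:4133935-4133961, minus strand): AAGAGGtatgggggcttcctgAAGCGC
Penk copy 7 (chr4:4133842-4133868, minus strand): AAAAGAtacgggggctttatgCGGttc
Pdyn copy 1 (chr2:129688232-129688258, minus strand): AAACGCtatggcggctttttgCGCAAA
Pomc copy 1 (chr12:3960367-3960393, plus strand): AAGCGTtacggtggcttcatgacctcc
Copy 6 of Penk is its leucine copy, and copy 7, near the end of the precursor, is followed by 1 basic codon and not by a pair. The Pomc copy opens the part that encodes beta-endorphin and has no basic codon in the 6 bases after it. Pnoc, the related precursor of nociceptin, held 0 copies. All of these lie in coding exons.

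Basic codon pairs were denser in the precursors than in the receptors. Runs of 2 or more codons for lysine or arginine occurred at a median of 2.3 per 100 codons over the 17 precursors, 1.67 over the granins, 1.59 over the processing enzymes and 1.04 over the receptors. Over all 21387 coding genes the median was 1.19. Adcyap1 (4.57) and Penk (4.48) were densest among precursors. Grp (0.68) and Sst (0.86) were lowest and lay below the median of all genes, although Sst was among the highest by level. A run is a description of letters and not a measured cleavage site.

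All 6 granins were expressed, and 5 of them exceeded 10 TPM in both libraries. Scg3, secretogranin III, which binds chromogranin A at the vesicle membrane, had 78.2 TPM in replicate 1 and 90.2 TPM in replicate 2. Scg5 encodes 7B2, the chaperone of the convertase PC2, and had 70.02 and 69.4 TPM. Chga, chromogranin A, had 56.6 and 61.6 TPM. Those 3 genes held 82.4% ± 1.03 of the summed granin TPM. Chgb (chromogranin B) followed at 25.7 and 29.9 TPM and Scg2 (secretogranin II) at 13.2 and 16.3 TPM. Vgf, a granin-like gene that growth factors induce, was lowest at 2.82 and 3.55 TPM. The order of the 6 was the same in both libraries.

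Among the processing enzymes, Cpe, the carboxypeptidase that trims basic residues, was highest. It had 331 TPM in replicate 1 and 366 TPM in replicate 2, ranked 356th among protein-coding genes and held 71.0% ± 2.44 of the summed TPM of this role. Pcsk1n, which encodes proSAAS, an inhibitor of the convertase PC1/3, had 111 and 108 TPM. Its target gene Pcsk1 had 0.99 and 2.06 TPM (77 and 91 counts) and thus fell just short of the rule for expression in replicate 1. Pcsk2, the gene of the convertase PC2, had 7.90 and 9.68 TPM. Scg5, its chaperone, lay above it by 3.00 ± 0.22 on the log2 scale. Pam, the gene of the amidating enzyme, had 26.6 TPM in replicate 1 and 17.2 TPM in replicate 2. The median of this role is the value of Pam itself, so its difference between libraries is that of Pam.

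Other enzymes that cut or finish precursors were measured beside them. Of 16, 15 were expressed. Highest were the lysosomal protease gene Ctsl (108 and 107.5 TPM) and the site-1 protease gene Mbtps1 (72.3 and 75.9 TPM). Pcsk7, a convertase of the constitutive pathway, had 22.1 and 21.7 TPM and lay above Pcsk2 in both libraries. Cpd, the carboxypeptidase of the trans-Golgi network, had 9.34 and 9.86 TPM, and Cpe lay above it by 5.18 ± 0.05 on the log2 scale. Of 23 dense-core vesicle genes 22 were expressed, among them Rab2a (245 and 260.4 TPM), Rab3a (144 and 157 TPM) and Syt4 (42.5 and 42.2 TPM).

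Of 15 receptor genes 7 were expressed, and 3 held 84.2% ± 1.36 of their summed TPM. Adcyap1r1, the PACAP receptor PAC1, had 24.2 TPM in replicate 1 and 26.3 TPM in replicate 2. Sstr2, a somatostatin receptor, had 21.7 and 21.8 TPM. Calcrl, the receptor subunit that CGRP and adrenomedullin share, had 13.2 and 12.9 TPM. The library values of these 3 genes were close to each other. Npy1r (2.65 and 3.77 TPM), Tacr1, the substance P receptor (1.87 and 1.98 TPM), Sstr1 (1.94 and 1.47 TPM) and Galr1 (1.01 and 1.26 TPM) followed, and Galr1 was the member just inside the threshold. The other 8 lay between 0.14 and 0.80 TPM. They were Sstr3, Sstr4, Npy2r, Npy5r, the 3 classical opioid receptor genes Oprd1, Oprk1 and Oprm1, and Ramp1. The neighbours Npy5r and Npy1r lie 9064 bases apart on opposite strands of chromosome 8, and the first had 0.45 and 0.41 TPM.

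The direction between ligand and receptor differed by pair. In 8 of the planned pairs both genes were expressed, and in 5 of those the precursor had the higher level in both libraries. The other planned pairs were left out because their receptor gene was not expressed by the rule. In each of these the precursor was higher as well, with log2 ratios from 3.63 (Pdyn over Oprk1) to 9.39 (Sst over Sstr3). The split among the 8 pairs thus depends on that filter. The pairs share genes, since Sst was paired with both Sstr2 and Sstr1, and Calcrl with both Calca and Calcb. Sst lay above Sstr2 by 2.33 ± 0.01 on the log2 scale (5.04-fold) and above Sstr1 by 6.02 ± 0.29. Npy lay above Npy1r by 5.77 ± 0.43, Gal above Galr1 by 3.91 ± 0.36 and Tac1 above Tacr1 by 3.54 ± 0.02. The remaining 3 pairs ran the other way, with the receptor above its ligand. The log2 ratio was −0.61 ± 0.29 for Adcyap1 over Adcyap1r1, −1.67 ± 0.44 for Calca over Calcrl and −3.15 ± 0.06 for Calcb over Calcrl.

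**Figure D2:**
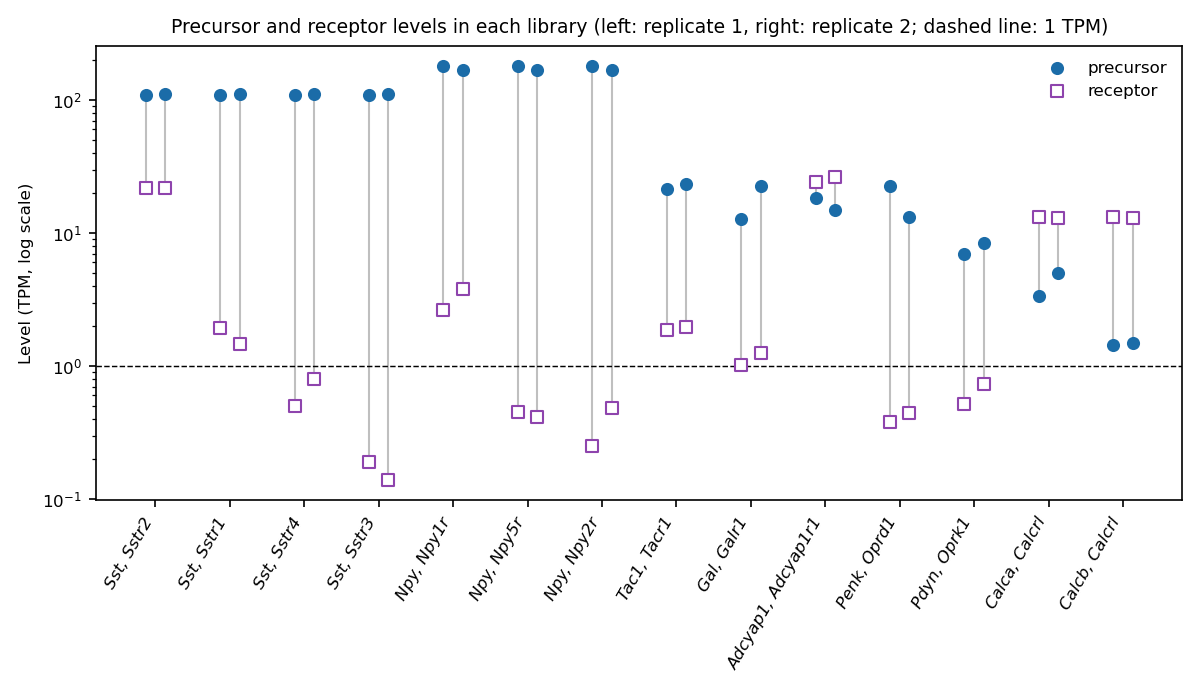
Levels of precursor (filled circle) and receptor (open square) for the 14 planned pairs in each library (TPM, log axis, replicate 1 on the left of each pair and replicate 2 on the right). The receptor lies above the precursor for Adcyap1 with Adcyap1r1, and the subunit gene Calcrl lies above Calca and Calcb. In 6 of the 14 pairs the receptor is below the dashed line at 1 TPM.

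Calcrl needs a RAMP subunit, and the partner decides which ligand it binds: Ramp1 makes the CGRP receptor, and Ramp2 and Ramp3 make adrenomedullin receptors. Ramp1 had 0.24 and 0.35 TPM (11 and 17 counts; 0.41 and 0.54 TPM by the posterior mean), whereas Ramp2 had 62.2 and 57.9 TPM and Ramp3 11.9 and 10.5 TPM. Ramp2 lay above Ramp1 by 7.69 ± 0.46 on the log2 scale and above Calcrl by 2.20 ± 0.05. Endothelial cells are known to use Calcrl with Ramp2, and all 6 endothelial markers were expressed (sum 123 and 127 TPM). Their part in these levels was not tested.

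A further opioid receptor gene, Oprl1, the nociceptin receptor, was more abundant than the classical 3 in both libraries. It had 31.0 TPM in replicate 1 and 28.7 TPM in replicate 2, against 0.52 and 0.73 TPM for Oprk1, the highest of those 3 by this estimate. By the deposited posterior mean Oprm1 was highest of them, at 1.93 and 2.29 TPM. Its ligand gene Pnoc had 15.7 and 16.9 TPM, a log2 ratio of Pnoc over Oprl1 of −0.87 ± 0.15. The listed genes outside the 43 held few other well expressed ligands. Of 42 further precursors 12 were expressed, 4 of them at 10 TPM or more in both libraries: Dbi, the diazepam binding inhibitor (1049 and 1119 TPM), which also binds acyl-CoA in many cells, Cartpt (26.1 and 24.7 TPM), Pnoc, and Nucb2 (12.8 and 11.7 TPM). Of 34 further genes listed as receptors 12 were expressed. Ramp2, Ramp3, Crcp and the binding protein gene Crhbp were counted in that list, so it is not made of receptors alone. In it Npr2, a natriuretic peptide receptor, had 35.5 and 47.4 TPM, and its ligand gene Nppc had 9.87 and 10.9 TPM.

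Promoters are shown for 5 members whose window holds a full cyclic AMP response element, the letters TGACGTCA, which read the same on both strands. The windows are 300 bases long, 250 before the RefSeq start and 50 after it (build GRCm38.p6), and 34 of 43 members had one. The motif stood in 14.7% of these members, against 2.03% of the 27025 gene symbols in the table. The core TGACG, searched on both strands and included in the full element, stood in 20 of 34 members (58.8%) against 23.0% of symbols. All 5 granins with a window held the core. The element is known to bind CREB family factors in the somatostatin and granin promoters. Each line gives the element in capitals with 11 bases on each side, in the direction of the gene, 5′ to 3′.
Sst (chr16:23890874-23890903, minus strand): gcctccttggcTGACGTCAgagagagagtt
Chgb (chr2:132781559-132781588, plus strand): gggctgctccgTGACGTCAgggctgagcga
Scg2 (chr1:79440076-79440105, minus strand): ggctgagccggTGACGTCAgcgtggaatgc
Sstr2 (chr11:113619258-113619287, plus strand): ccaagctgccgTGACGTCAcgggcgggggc
Pcsk1 (chr13:75089768-75089797, plus strand): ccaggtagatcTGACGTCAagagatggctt
Their first bases lay 48, 72, 68, 58 and 78 bases before the RefSeq start of Sst, Chgb, Scg2, Sstr2 and Pcsk1. In the GENCODE annotation the genes Sst, Chgb and Scg2 begin further upstream, so there the element falls inside the gene. These 5 genes spanned levels from 0.99 TPM (Pcsk1, replicate 1) to 110.2 TPM (Sst, replicate 2). Creb1 had 38.9 and 41.3 TPM and Crem 17.5 and 22.2 TPM. A match of letters is not a measured binding site.

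Of the 43 members, 10 have 1 annotated transcript, and of the other 33 the same transcript led in both libraries for 29. The leading transcript by mean share was protein-coding for 41 members. Exceptions were Adcyap1, where the retained-intron transcript Adcyap1-203 took 41.9% and 53.1% of the gene's TPM, and Calca, where the retained-intron transcript Calca-203 took 32.7% and 39.2%. For Calcrl a short processed transcript, Calcrl-203, took 39.4% and 40.4% beside the leading Calcrl-202 (49.0% and 46.2%). By counts, Calcrl-203 held 43.6 and 45.2 of the gene's 721 and 725. Pam-210 led the 15 transcripts of Pam with 61.7% and 54.0%, and Adcyap1r1-202 led the PAC1 receptor gene with 87.5% and 84.0%. Scg2, Tacr1, Oprm1 and Pcsk1 changed their leading transcript between libraries. For Pcsk1 the leader in replicate 2, Pcsk1-203, had only 1.64 and 8.68 estimated counts in replicates 1 and 2. For Scg2 the share of Scg2-202 was 70.2% and 46.6%, but the posterior SDs of its counts (429 and 366) were 41.1 and 66.8. In the M4 tables Adcyap1 and Calca were led by the protein-coding transcripts Adcyap1-201 and Calca-201, and neither retained-intron transcript was among the transcripts matched.

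The 2 libraries were then compared with each other by counts, which tells which members were sampled unequally by the 2 pools. The test was a two-sided exact binomial test of counts, adjusted by the Benjamini-Hochberg method over 20125 genes. It covers counting error only, and there is no replicate check. Of 41 members tested, 8 were higher and 4 lower in replicate 2. That is 29.3% of the members, beside 20.3% of all genes tested (10.5% higher and 9.78% lower). A change over 1.5-fold was seen in 5 of 41 members, beside 11.2% of all genes. With spike-in or TPM scaling the members split into 9 higher and 2 lower. All genes leaned the same way there, with 3891 higher and 1171 lower by spike-ins and 3296 and 1341 by TPM. The median log2 ratio was 0.09 over members and close to 0 (−0.00093) over all genes.

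Galanin and proenkephalin moved in opposite directions. Gal took 182 counts in the first pool against 334 in the second, which gives a log2 ratio of 0.78 (95% interval 0.52 to 1.06, adjusted p = 6.22e-08 by the exact binomial test). Penk had 537 and 339 counts, a log2 ratio of −0.75 (−0.95 to −0.55, exact binomial adjusted p = 1.99e-12). Pam, the amidating enzyme gene, fell by a like size, from 1837 to 1172 counts, with a log2 ratio of −0.74 (−0.84 to −0.63, exact binomial adjusted p = 5.69e-41). In none of these 3 genes did the interval reach 0. They were also the members called by edgeR's exact test with a common dispersion (adjusted p = 0.0112, 0.00482 and 0.000692), which called 1.18% of all genes. The spread in that test, a biological coefficient of variation of 7.16%, was estimated over all genes from the same 2 libraries, so these calls are no independent check.

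Smaller differences passed the exact binomial test alone. Among granins, Scg2 (log2 ratio 0.30), Scg3 (0.19) and Chgb (0.18) were higher in replicate 2, and 5 of 6 ratios were positive. Npy1r (0.48), Pdyn (0.29), Pcsk2 (0.25) and Cpe (0.06) were higher as well. Npy (−0.15) and Pcsk1n (−0.08) were lower, and both calls ended with spike-in and TPM scaling, while Chga (0.09, adjusted p = 0.127 by the exact binomial test) was called there. The calls of Pdyn and Pcsk1n also ended without the filter on low counts. Sst (−0.03, 95% interval −0.13 to 0.08), Tac1 (0.05, −0.15 to 0.26), Sstr2 (−0.01, −0.14 to 0.13) and Adcyap1r1 (0.03, −0.05 to 0.10) had narrow intervals around 0. The ratio of Calca was 0.37 with an interval of −0.18 to 0.97, too wide at 46 and 64 counts to show a difference of that size.

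**Figure D3:**
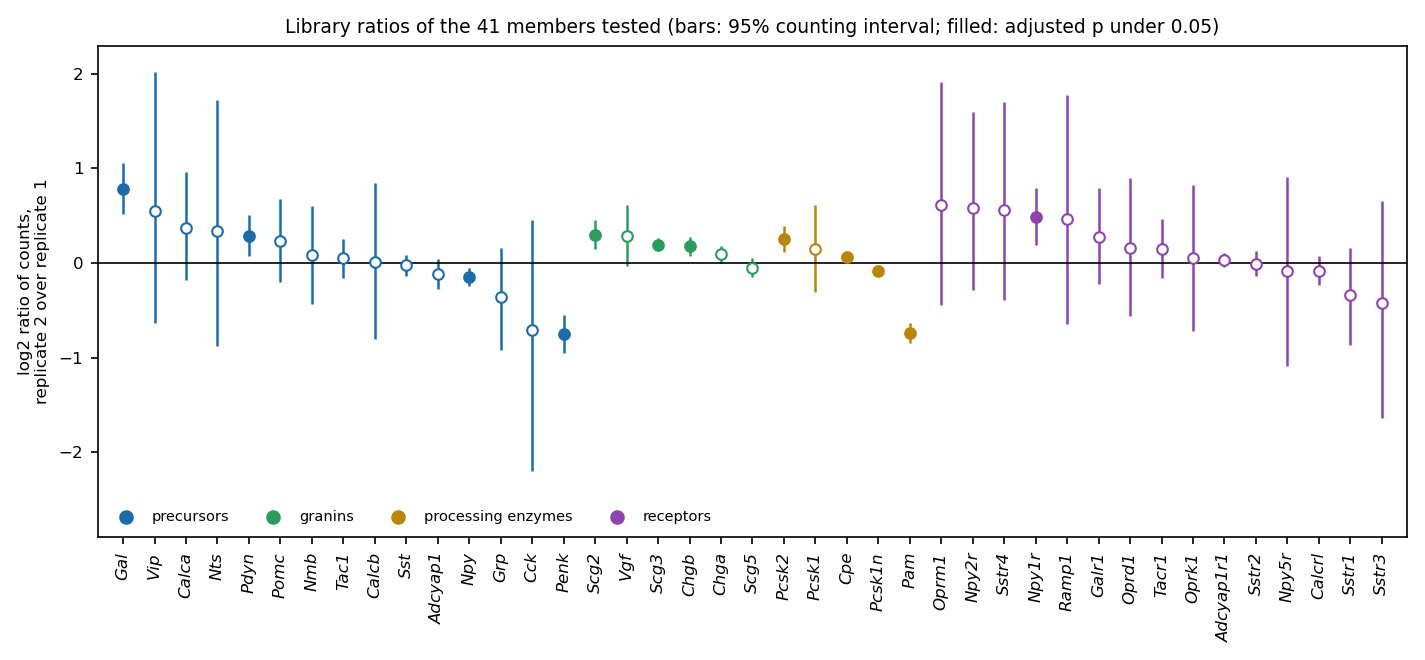
Log2 ratio of counts, replicate 2 over replicate 1, for the 41 members tested, by role, with 95% counting intervals as bars and filled points for an adjusted p under 0.05. Gal lies at 0.78 and Penk and Pam near −0.75, while the intervals of rarely counted members such as Cck, Nts and Sstr3 span more than 2 log2 units.

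Markers of several cell types differed between the same pools, those of the neural tube itself included. Calls here are by the exact binomial test, which called 20.3% of all genes tested. Of 8 neural tube markers 3 were called lower and 0 higher (median log2 ratio −0.07). Of 6 dorsal spinal neuron markers 2 were called higher and 1 lower (median −0.09). All 9 sensory ganglion markers had positive ratios and 8 were called higher, with a median log2 ratio of 0.55. Their summed level was 156 TPM in replicate 1 and 231 TPM in replicate 2, and none was at 0. Of the 15 precursors tested, Gal and Pdyn were higher and Npy and Penk lower (26.7% called). The others did not pass the test, among them Tac1 (0.05), Calcb (0.02), Calca (0.37), Adcyap1 (−0.12), Nmb (0.08) and Sst (−0.03). Skeletal muscle markers fell in 6 of 6 cases (median −0.51, sum 237 and 168 TPM). Motor neuron markers split into 4 lower and 1 higher (median −0.43, sum 93.6 and 95.1 TPM). The 1 higher was Isl2, at 36.3 and 49.3 TPM, so the near-equal sums hide the fall of the other 4. Schwann cell precursor markers had 2 higher and 0 lower (sum 70.8 and 85.2 TPM). Sympathetic markers, of which 2 of 6 were expressed, summed to 13.9 and 12.6 TPM. The part of these cells in the ratios of Gal, Penk, Pam and the granins was not tested. In bulk tissue fewer cells of a type and less RNA per cell cannot be told apart.

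Related genes gave these counts, to be read beside the 20.3% called over all genes tested. The shares called were 28% of the further receptor list, 6.25% of the further enzymes, 17.4% of the dense-core vesicle genes and 38.5% of the transcription factor genes. Of the further precursors 13 were tested and 0 were called by the exact binomial test, with a median log2 ratio of −0.16. Of 25 genes tested from the further receptor list 6 were higher and 1 lower (median 0.26). Npr2 (0.40) and Sort1 (0.14), a neurotensin receptor that also sorts proteins, were higher, and Oprl1 (−0.22) was lower. Of 16 further enzymes Ece1, an endothelin-converting enzyme gene, was called (0.30). Among 23 dense-core vesicle genes Snap25 (0.33), Stx1a (0.31) and Vamp2 (0.23), which drive vesicle fusion, were higher, and Cyb561 (−0.21) was lower, with a median of 0.01. Among the transcription factor genes Isl1 (0.42), Neurod1 (0.35) and Neurod4 (0.16) were higher, and Rest (−0.16), a repressor of neuronal genes that include granins, was lower.

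**Figure D4:**
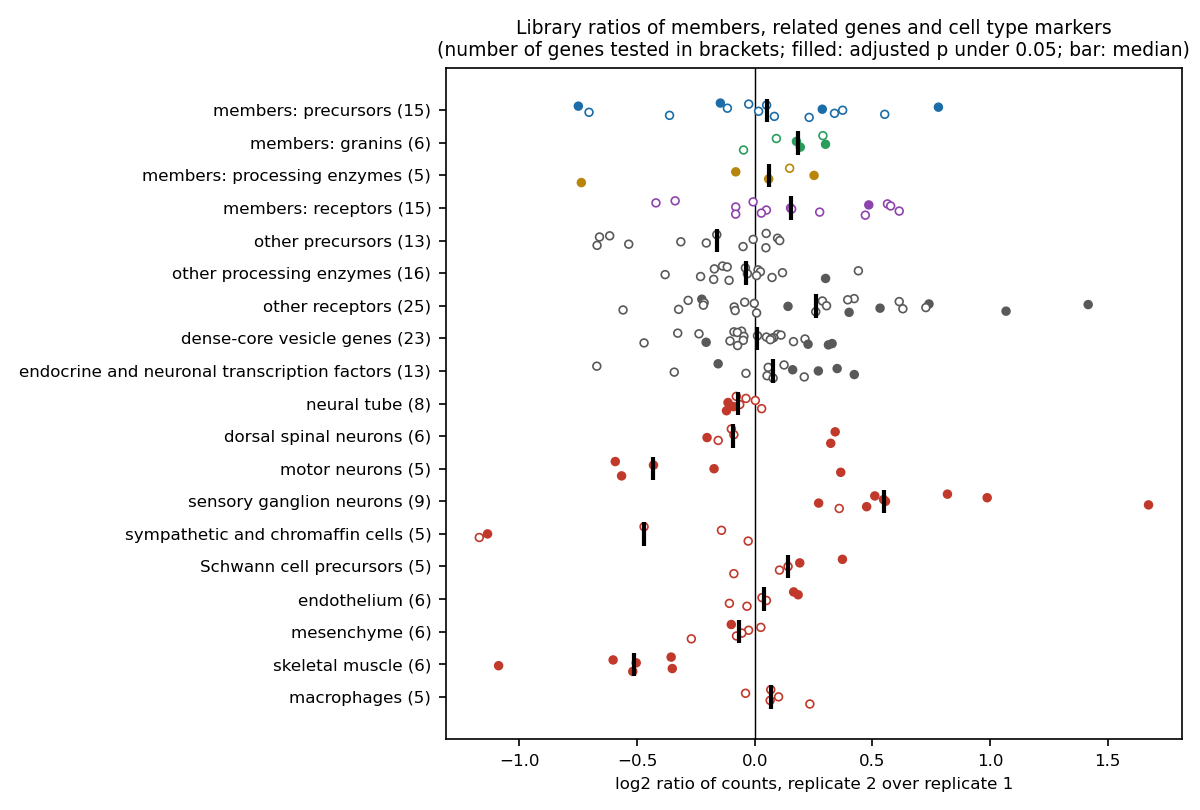
Log2 ratio of counts, replicate 2 over replicate 1, for each tested gene of the 4 member roles, 5 lists of related genes and the 10 marker lists with a tested gene, with filled points for an adjusted p under 0.05 and a bar at each median. The medians of the 4 member roles lie between 0.05 and 0.19, that of sensory ganglion markers at 0.55 and that of skeletal muscle markers at −0.51.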

How the data were processed

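Per the labels' protocols, each library was made from 10 ng of total RNA primed with oligo-dT with a SMARTer Ultra Low kit, tagmented with Nextera and given ERCC spike-ins; no strand-specific step is named, so reads of antisense partners (such as Pcsk2 and Pcsk2os1) cannot be told apart. The replicates are separate pools of embryos. The authors deposited gene and transcript tables on mm10, quantified against GENCODE M21 (used here) and M4, per the deposited notes. Which aligner and quantifier made them is not given in the sources used here, though the header fields carry RSEM's names. The deposited estimated counts need not be whole. The deposited TPM is per effective length. The deposited transcript percent is the share of a gene's TPM.

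The 43 members and all gene lists were chosen with earlier results of these data known. All members, the 6 highest genes of each related list, those called at a mean of 5 TPM or more, and the marker genes may be named. Estimated counts were rounded, scaled by TMM (edgeR 4.0.16, R 4.3.3), kept at 10 counts or more in either library and compared by an exact binomial test at an adjusted p of 0.05, with log2 ratios at a prior count of 2. Tested on simulated data with counting error only, 200 of 20125 genes being changed at each fold, it recovered 43.5% of 1.25-fold, 59.5% of 1.5-fold and 74% of 2-fold changes. PCR copies count as reads. Alternatives were DESeq2 1.42.0 size factors, spike-in and TPM scaling, no filter, edgeR's exact test and M4. Promoters came from RefSeq. The design named RefSeq proteins for the basic pairs; GENCODE M21 coding sequences, read codon by codon with Biopython 1.88, were used instead, the longest per gene that starts with a start codon. Python 3.11.15, pandas 2.3.3 and scipy 1.17.1 were used.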

Additional observations from a re-analysis of the deposited data

How the results depend on the processing

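No paired analysis was possible because there is only 1 group. Of 174 alternative values, 146 were labelled as kept and 0 as reversed, but the label was broad. For counts of members it allowed a fall from 29 expressed members to 20 at a threshold of 5 TPM. For library ratios with log2(TPM + 1) there was no adjusted p, so it covered direction only. For contrasts and pairs it meant a move within the SD of the 2 libraries. Leaving out 1 of 2 libraries cannot exceed that SD, so the label is no test there. With a threshold of 5 TPM, 3 receptors were expressed. With expressed members only, the log2 contrast of granins over precursors was 2.08, that of enzymes over precursors 2.67 (enzymes then stood above granins) and that of precursors over receptors 1.70. With log2(TPM + 1) the first and last were 2.95 and 1.79. By posterior mean TPM 31 members were expressed, with Cck, Pcsk1 and Oprm1 gained and Galr1 lost. Members higher in replicate 2 numbered 1 by edgeR's exact test with a common dispersion. Members lower numbered 2 by that test, 2 with spike-in scaling and 2 with TPM scaling. Of the 12 calls, all 12 were kept with DESeq2 size factors and with M4, 10 with spike-in or TPM scaling, 10 without the filter and 3 with the common dispersion. In M4 the 29 expressed members had 0.729 to 1.29 times their level in M21, so the log2 ratio of Sst over Sstr2 was 2.62 and that of Calca over Calcrl −2.17. Leaving out either library changed neither the role order over all members nor a pair direction. Depth limits the members under 1 TPM, whose intervals are wide.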

Other observations

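For some members the level and the count gave different pictures of the libraries. Pcsk1 had 0.99 TPM in replicate 1 and 2.06 TPM in replicate 2, while its counts were 77 and 91, a log2 ratio of counts of 0.15. Its effective length was 3697 bases in replicate 1 and 2041 bases in replicate 2. The short transcript Pcsk1-203 (466 bases) took 21.4% and 53.0% of the gene's TPM there. Those shares rest on 1.64 and 8.68 estimated counts (posterior SDs 1.83 and 2.67). Pcsk1-201 held 73.4 and 74.6 counts, at 0.71 and 0.70 TPM. Adcyap1 had 18.25 and 14.96 TPM with 693 and 680 counts, at effective lengths of 1813 and 2097 bases. Oprk1 had 29 and 32 counts at effective lengths of 2653 and 2031 bases, with 0.52 and 0.73 TPM.

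The deposited posterior mean TPM, averaged over both libraries, was 2.11 for Oprm1, a gene with 31 annotated transcripts, against 0.405 TPM by the main estimate, from 11 and 19 counts. For Cck it was 1.68 against 0.94 TPM, for Ramp1 0.475 against 0.295 TPM and for Sstr3 0.33 against 0.165 TPM. These 4 were the members that moved by over 1.5 times. For the 29 expressed members the 2 estimates stayed within 0.968 to 1.19 times of each other.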
